A study of Mus musculus with 25 samples.

Results

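E13.5 mammary mesenchyme (E13.5 MM) was compared with E13.5 ventral skin mesenchyme (E13.5 VM) over all expressed genes, with 5 RNA-Seq samples of each tissue, 10 of the 25 samples in the series. Every sample labelled with these tissues was used, and the genes were the 17657 of 35880 that passed the expression filter of edgeR. All embryos were C57Bl/6JOlaHsd mice with no transgene or treatment. E13.5 MM was the tissue around the mammary buds 1 to 3, freed of epithelium by enzyme treatment and dissection, and E13.5 VM was ventral skin mesenchyme collected at a distance from the mammary region. Each sample pooled tissue from 2 to 3 embryos of a single litter, and the 5 pools of a tissue came from 3 litters. The sources used here do not say which pools shared a litter, so every pool counted as a separate replicate and p-values measure the spread between pools. The sources state that embryos were female only for stages later than E13.5. The other 15 samples were salivary gland mesenchyme at E13.5 (E13.5 SM) and, at E16.5, mammary mesenchyme (E16.5 MM) and fat pad precursor tissue (E16.5 FP).

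Mammary mesenchyme is the dense layer of fibroblast-like cells that forms around each epithelial bud. In mice it is known for its response to sex steroids and for signals, such as Wnt, Bmp, Fgf and parathyroid hormone-related protein, that pass between it and the bud. Skin mesenchyme next to it forms the dermis and takes part in hair follicle formation. A comparison of the 2 tissues at one stage asks what sets the mesenchyme around a gland apart from that of ventral skin away from it.

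The total counts of the 10 samples ran from 23635931 to 34448304. On the first principal component of the 500 most variable genes, which held 27% of their variance, E13.5 VM samples 1 and 3 and E13.5 MM sample 3 stood apart from the other 7. These 3 samples had the largest shares of counts in pseudogenes, 2.58%, 1.94% and 2.81% against 1.33% to 1.69% in the rest. Sample 1 of E13.5 VM also had 10.4% of its counts in a set of repeat-like predicted genes, against 0.384% to 3.79% in the other samples of these tissues. The second component, with 25.3%, set all 5 E13.5 MM samples apart from all 5 E13.5 VM samples. General mesenchyme genes were present in both tissues, but not all at like levels. Pdgfra was at 842 to 1024 CPM, a count relative to the library total, in E13.5 MM against 874 to 1277 in E13.5 VM. Prrx1 was at 215 to 255 and 247 to 356. Of the same list, Dpt and Lum were called higher in E13.5 MM, with log2 differences of 2.81 and 1.29. Twist2 was called lower, at -0.60, and the other genes of the list were not called. Ddx3y, a gene of the Y chromosome, had 2427, 3027, 2447, 5088 and 6106 normalized counts in E13.5 MM against 1455, 1846, 1424, 1964 and 2547 in E13.5 VM, so the pools also differed in their Y-linked transcripts. The median log2 difference of the 4 Y-linked genes tested was 0.83, higher in E13.5 MM. None of the 4 was called by edgeR, none had an unadjusted p under 0.05 and DESeq2 called none. Both tests took their spread from all 25 samples, and Ddx3y ran from 0 to 4501 within E13.5 SM. They therefore cannot show that the 2 tissues were alike in these genes. In a fit of the 10 samples with the summed level of these genes as a covariate, 654 genes were higher in E13.5 MM and 441 lower.

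In E13.5 MM 669 genes were higher than in E13.5 VM and 470 were lower, which is 3.79% and 2.66% of the 17657 genes tested. A gene was called higher or lower at an adjusted p under 0.05 in the quasi-likelihood test of edgeR, a change of 0.58 or more on the log2 scale in either direction, and more than 50 normalized counts on average in the higher tissue. A normalized count is a count scaled with TMM factors to the mean library size, and a log2 fold change is E13.5 MM against E13.5 VM unless stated. The median log2 fold change was 1.03 among the genes higher, -0.91 among those lower and -0.01 over all genes tested. More than 2-fold differences were measured for 351 of the genes higher and 196 of those lower, and more than 8-fold differences for 30 and 12. In 603 of the 669 genes and in 429 of the 470 the 5 samples of one tissue did not overlap the 5 of the other. Over all genes tested, 7.02% were higher and 7.31% lower with no overlap, 14.3% in all. In bulk tissue fewer cells of a type and less RNA per cell cannot be told apart. Without the 3 samples that stood apart, 604 genes were higher and 471 lower, of which 559 and 383 had also been called with all samples.

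**Figure D1:**
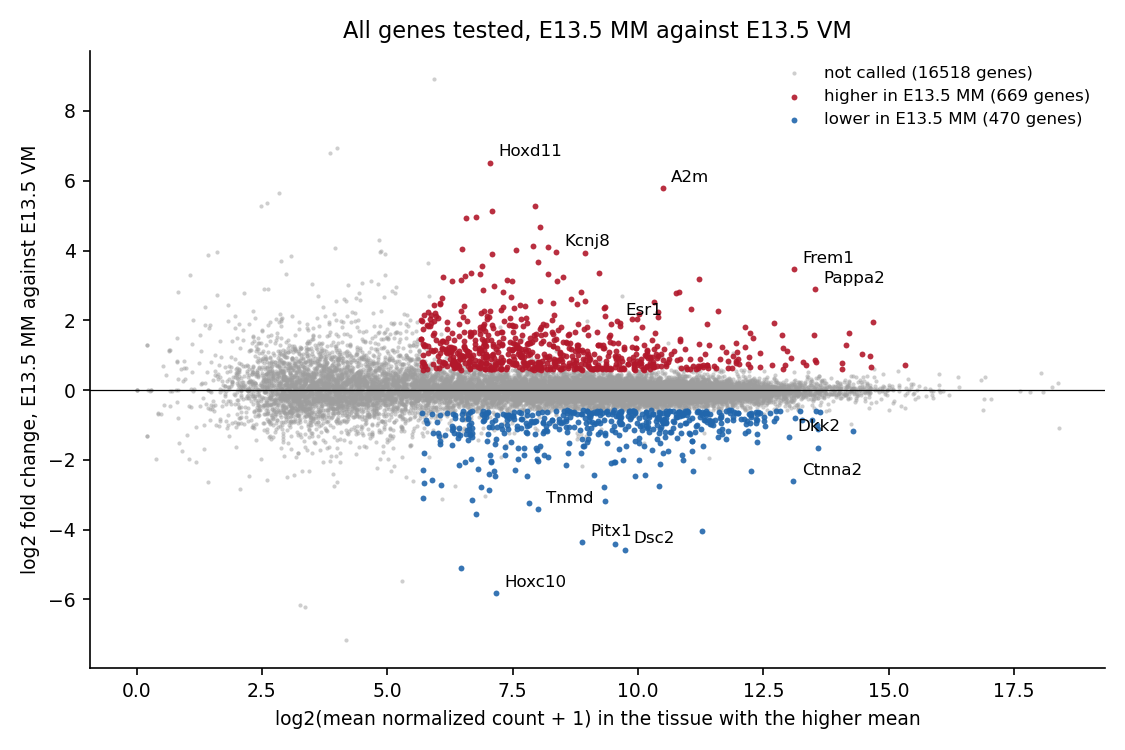
Log2 fold change of each of the 17657 genes tested, E13.5 MM against E13.5 VM, against the log2 mean normalized count in the tissue with the higher mean. Red points are the 669 genes called higher and blue points the 470 called lower; A2m and Frem1 lie high among the abundant genes, and Ctnna2 and Dsc2 low.

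Among the genes with the largest rises were A2m, Frem1, Sim2, Dlx3 and Grm3. The 15 largest changes in each direction were chosen among called genes whose tissues did not overlap. A lack of overlap in them thus came from that choice. A2m, the broad protease inhibitor alpha-2-macroglobulin, had 1452, 1449, 1675, 1196 and 1439 normalized counts in E13.5 MM against 31.2, 29, 29, 23.6 and 16.9 in E13.5 VM, in the order of the sample numbers. The difference was a log2 fold change of 5.79 ± 0.26 (SE, edgeR adjusted p = 1.80e-13). Frem1, a secreted matrix protein of the basement membrane zone, had 11399.5, 10582, 6324, 7559 and 8672 in E13.5 MM against 982, 788, 552, 954 and 776 in E13.5 VM. Its log2 fold change was 3.46 ± 0.22 (SE, edgeR adjusted p = 8.15e-11). Sim2, a transcription factor of the bHLH-PAS family, had 439, 354, 212, 153 and 164 in E13.5 MM against 5.37, 4.15, 14.9, 7.0 and 17.8 in E13.5 VM, with a log2 fold change of 4.68 ± 0.44 (SE, edgeR adjusted p = 5.02e-08). Dlx3, a homeodomain factor of ectodermal organs, was close to absent in E13.5 VM, where the samples had 3.22, 2.07, 4.7, 3.5 and 0.938 normalized counts against 98.2, 96.5, 72.1, 101 and 101 in E13.5 MM, with a log2 fold change of 4.94 ± 0.42 (SE, edgeR adjusted p = 3.29e-09). Sample 3 of E13.5 MM was the lowest of its group for Dlx3. Slc26a7, an anion transporter, rose by 4.09 ± 0.40 on the log2 scale (SE, edgeR adjusted p = 1.05e-07).

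The rule for named genes also gave Grm3, Stmn2, Sorcs3, Cbln4, Shisa9, Pirt and Cabp7. Grm3, a metabotropic glutamate receptor, had 115, 116, 156, 90 and 67.1 normalized counts in E13.5 MM against 2.15, 7.26, 2.35, 0.875 and 4.69 in E13.5 VM. Its log2 fold change was 4.95 ± 0.40 (SE, edgeR adjusted p = 1.26e-09). The log2 fold change was 4.13 ± 0.29 for Stmn2, a regulator of microtubules in axons, 4.01 ± 0.37 for the sorting receptor Sorcs3, 3.94 ± 0.38 for the secreted synapse organizer Cbln4 and 3.91 ± 0.33 for the glutamate receptor partner Shisa9. It was 3.66 ± 0.26 for Pirt, a partner of sensory ion channels, and 3.57 ± 0.51 for the calcium-binding protein Cabp7 (edgeR adjusted p = 3.51e-10, 1.02e-08, 2.89e-08, 2.19e-09, 2.27e-10 and 9.99e-06 in that order). Of 21 tested genes on a list of peripheral neuron markers, 3 were higher and 3 lower, with a median of 0.15. Stmn2 was itself on that list, whose summed level was 205 to 230.0 CPM in E13.5 MM and 157 to 186 in E13.5 VM. Tubb3, the beta-tubulin common to neurons, was at 3.81 to 6.07 CPM in E13.5 MM against 4.03 to 8.48 in E13.5 VM, and Elavl3 was at most 0.456 in E13.5 MM. Without sample 2 of E13.5 VM, 1 of the 21 was lower in place of 3.

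A pair of adjacent genes that encode the subunits of an ATP-sensitive potassium channel rose together. Kcnj8, the pore subunit Kir6.1, had 420.1, 313, 385, 239 and 286 normalized counts in E13.5 MM against 45.1, 12.4, 25.1, 7.87 and 15.9 in E13.5 VM, with a log2 fold change of 3.96 ± 0.25 (SE, edgeR adjusted p = 5.94e-11). Abcc9, the sulfonylurea receptor subunit, had 1124, 1105, 1093, 766 and 883 in E13.5 MM against 435, 325, 329, 332 and 351 in E13.5 VM, with a log2 fold change of 1.49 ± 0.11 (SE, edgeR adjusted p = 2.67e-10). Neither gene overlapped between the tissues. Both are markers of pericytes, the mural cells of small vessels, and they were the 2 genes called of 8 tested on that list. Of the other pericyte genes, Cspg4 was at 28.6 to 49.1 CPM in E13.5 MM against 28 to 41.7 in E13.5 VM, Notch3 at 30.1 to 41.8 and 34.4 to 47, and Rgs5 at 0.958 to 3.61 and 0.290 to 0.997. The summed level of the 8 genes was 189.8 to 237 CPM in E13.5 MM and 155 to 175 in E13.5 VM. This sum includes the 2 channel genes, so it is no separate measure of pericytes. Abcc9 was at 28.4 to 42.6 CPM in E13.5 MM and 12 to 15.1 in E13.5 VM, and Kcnj8 at 8.88 to 15.7 and 0.293 to 1.57. The part of pericytes in the rise of the channel genes was not tested.

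**Figure D2:**
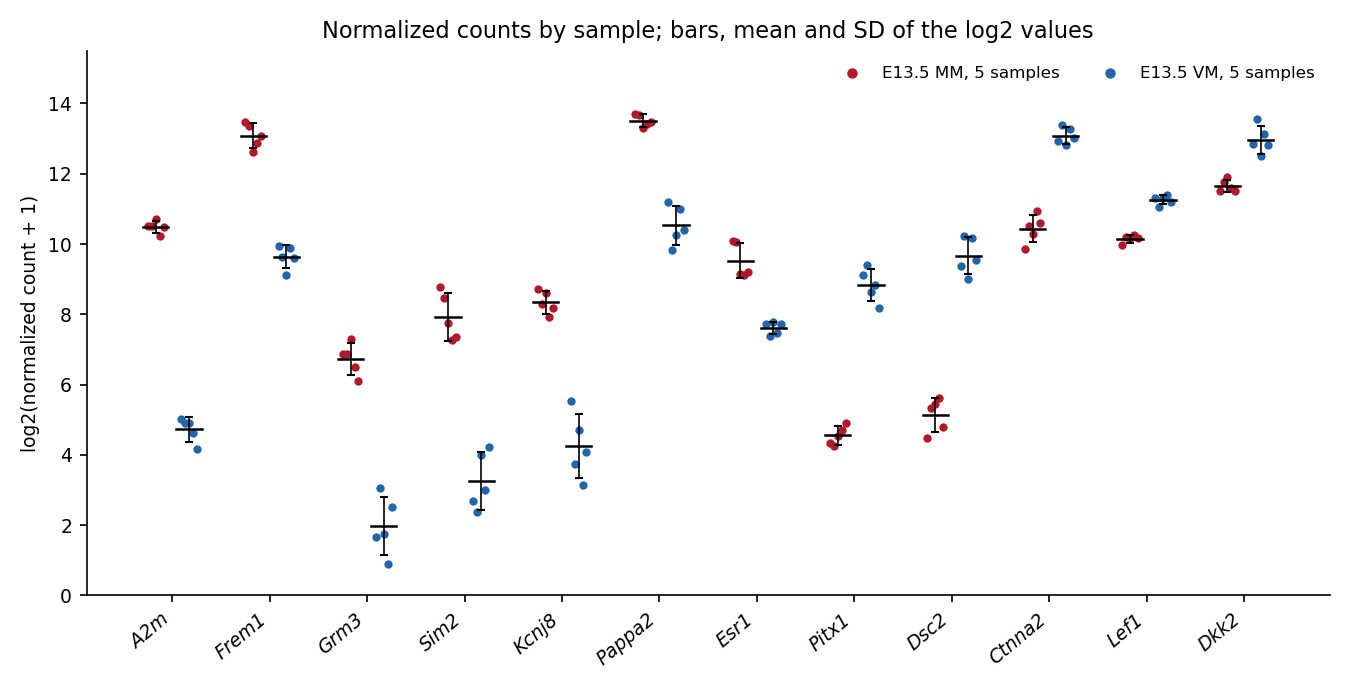
Log2(normalized count + 1) of 12 genes in each of the 5 E13.5 MM samples (red) and the 5 E13.5 VM samples (blue), with the mean and SD of the log2 values in black. The samples of the 2 tissues do not overlap for any gene shown, which the choice of genes fixed for those among the largest changes. Dsc2 ran from 513 to 1203 normalized counts in E13.5 VM.

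Among the genes with the largest falls were Pitx1, Dsc2, Ppp2r2b, Nptx1 and Tnmd. Pitx1, a homeodomain factor known for hindlimb identity, had 19.2, 18.2, 22.4, 25 and 29.1 normalized counts in E13.5 MM against 552, 677, 397, 453 and 289.9 in E13.5 VM. Its log2 fold change was -4.36 ± 0.22 (SE, edgeR adjusted p = 1.38e-12). Sample 2 of E13.5 VM held the highest value of Pitx1 and of several genes below. Dsc2, a desmosomal cadherin, had 21.5, 39.2, 42.9, 48.5 and 26.5 in E13.5 MM against 661, 1203, 513, 1161 and 750.5 in E13.5 VM, with a log2 fold change of -4.57 ± 0.31 (SE, edgeR adjusted p = 1.49e-10). Ctnna2, the alpha-catenin of the nervous system that links cadherins to actin, had 933, 1451, 1253, 1958 and 1559.6 in E13.5 MM against 7753, 10755, 7219, 9868 and 8247 in E13.5 VM, with a log2 fold change of -2.61 ± 0.19 (SE, edgeR adjusted p = 7.45e-10). Ppp2r2b, a regulatory subunit of protein phosphatase 2A, fell by 4.42 on the log2 scale (SE 0.21, edgeR adjusted p = 1.80e-13).

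Pax9, a paired-box factor, had a log2 fold change of -2.86 ± 0.28, Mab21l2 one of -3.18 ± 0.44 and Tspan8, a tetraspanin, one of -3.23 ± 0.31 (edgeR adjusted p = 3.17e-08, 1.44e-05 and 1.95e-08). Il33, an alarmin cytokine, had 235, 163, 169.6, 193 and 255 normalized counts in E13.5 MM against 1165, 2476, 863, 1273 and 1062 in E13.5 VM, with a log2 fold change of -2.75 ± 0.32 (SE, edgeR adjusted p = 1.07e-06). Sample 2 of E13.5 VM was again the highest. Of 8 tested tendon genes 3 were lower, and these were the lineage genes Tnmd, Scx and Mkx. Scx, the transcription factor that defines tendon progenitors, had 5.65, 21, 11.7, 23.5 and 20.3 normalized counts in E13.5 MM against 123, 222, 87, 79.6 and 66.6 in E13.5 VM, with a log2 fold change of -2.79 ± 0.58 (SE, edgeR adjusted p = 0.00122), and Tnmd, tenomodulin, had a log2 fold change of -3.4 ± 0.41 (SE, edgeR adjusted p = 2.10e-06). The 2 tendon list genes that rose were Kera, a keratocan proteoglycan, at 2.81 ± 0.18 and, passing in the fit of 25 samples, the immediate early gene Egr1 at 1.0 ± 0.28 (edgeR adjusted p = 6.81e-11 and 0.0146). Mkx was not called without the 3 samples that stood apart (-0.96, edgeR adjusted p = 0.0576), and Egr1 not in the fit of the 10 samples alone (edgeR adjusted p = 0.0502). Nptx1, Gsg1l and Gabrb1, known from synapses, were also among the 15 largest falls, at -3.56, -3.14 and -2.79 (edgeR adjusted p = 1.10e-05, 3.45e-06 and 1.68e-08).

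Hox genes, which encode homeodomain factors that set position along the body axis, differed by cluster. E13.5 MM and E13.5 VM were taken from different sites, so body position and tissue type cannot be told apart for these or other genes. Of 32 tested, 9 were higher and 7 lower, 50% in all against 6.45% of all genes tested, and the genes called in one cluster all went the same way. In the HoxB cluster the 6 genes Hoxb2 to Hoxb7 were higher, with log2 fold changes of 0.61 for Hoxb2, 0.70 for Hoxb3, 0.83 for Hoxb4, 0.64 for Hoxb5, 0.93 for Hoxb6 and 0.74 for Hoxb7 (largest edgeR adjusted p = 0.0176). In the HoxD cluster the 3 genes called were Hoxd9 at 1.89 ± 0.25, Hoxd10 at 2.97 ± 0.30 and Hoxd11 at 6.52 ± 0.55 (SE, edgeR adjusted p = 3.03e-06, 2.22e-07 and 3.36e-09). The size rose with the paralog number over these 3. Hoxb2 was no longer called without sample 5 of E13.5 MM or sample 4 of E13.5 VM, nor Hoxb5 without sample 1 of E13.5 MM. Without the 3 samples that stood apart Hoxb5 was at 0.56 (edgeR adjusted p = 0.146) and Hoxb7 at 0.76 (edgeR adjusted p = 0.0547), and with no expression filter Hoxb5 had an adjusted p of 0.0703 in edgeR. In the HoxA cluster 5 genes were lower, with -1.63 for Hoxa3, -1.05 for Hoxa5, -0.89 for Hoxa7, -1.73 for Hoxa9 and -0.98 for Hoxa10 (largest edgeR adjusted p = 0.00314). In the HoxC cluster Hoxc9 had a log2 fold change of -1.61 ± 0.19 (SE, edgeR adjusted p = 6.96e-07) and Hoxc10 a log2 fold change of -5.81 ± 0.60 (SE, edgeR adjusted p = 3.59e-07).

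Hoxd11 had 80.2, 87, 173, 150.2 and 171 normalized counts in E13.5 MM against 4.3, 1.04, 0, 0 and 1.88 in E13.5 VM, where 2 samples had no count. Hoxc10 had 2.26, 1.91, 3.9, 3.91 and 0 in E13.5 MM against 152, 150.4, 151, 140.0 and 118 in E13.5 VM. Each gene was thus close to absent in one of the tissues and present in all 5 samples of the other. Hoxd10 had 150.2, 127, 129, 123 and 164 in E13.5 MM against 17.2, 19.7, 23.5, 14.9 and 12.2 in E13.5 VM, and Hoxd9 had 294, 289.6, 225, 263 and 299 and 72, 55, 88.6, 65.6 and 86.3. The annotation places Hoxd10 and Hoxd11 within the span of a predicted transcript, Gm28309, Hoxc8, Hoxc9 and Hoxc10 within that of Hoxc5, and Hoxa5 within that of Hoxa3, so reads that they share could be divided between them. Hoxc8, which is expressed in early mammary mesenchyme, was 1386 in E13.5 MM against 1979 in E13.5 VM on average and was not called, with a log2 fold change of -0.51 ± 0.11 (SE, edgeR adjusted p = 0.00115).

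**Figure D3:**
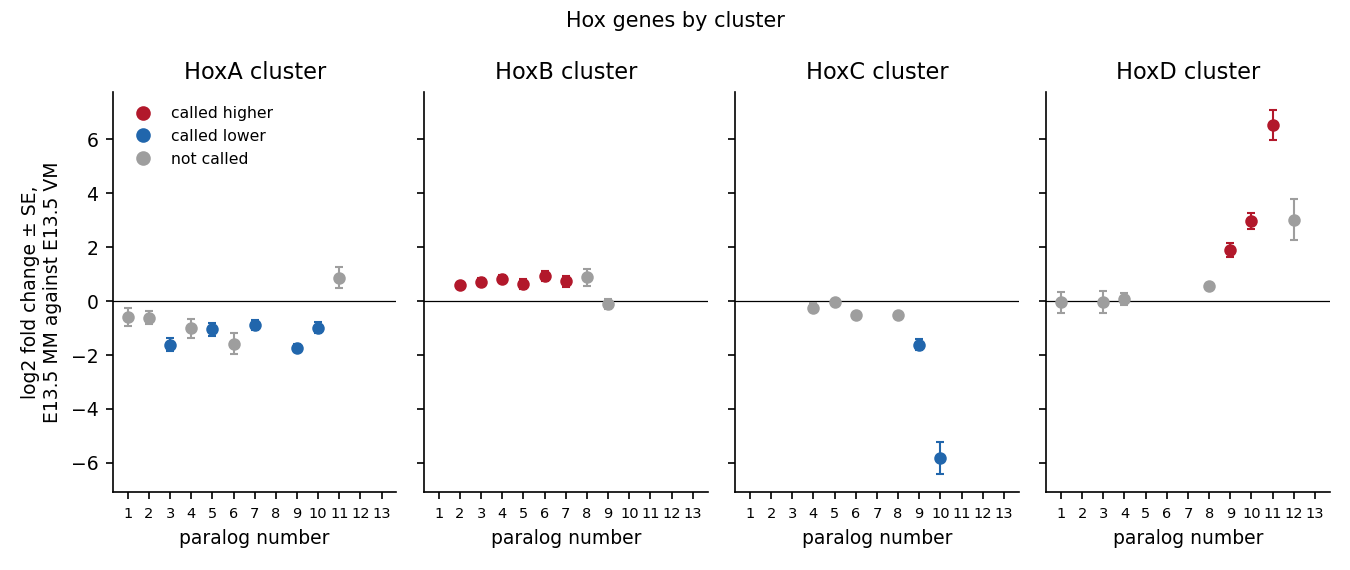
Log2 fold change with its SE, E13.5 MM against E13.5 VM, of the 32 Hox genes tested, by cluster and paralog number. Red points were called higher, blue points lower and grey points not called; red points lie in HoxB and HoxD and blue points in HoxA and HoxC.

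The promoters of Hoxd11, Hoxd10 and Hoxd9, neighbours on chromosome 2 that rose together, are shown with those of the adjacent genes Kcnj8 and Abcc9 on chromosome 6. Each is the RefSeq sequence from 250 bases before to 50 bases after the start, in GRCm38.p6, written 5′ to 3′ on the strand of the gene. Capitals mark a match to a motif searched.
Hoxd11, chr2:74679308-74679607, plus strand: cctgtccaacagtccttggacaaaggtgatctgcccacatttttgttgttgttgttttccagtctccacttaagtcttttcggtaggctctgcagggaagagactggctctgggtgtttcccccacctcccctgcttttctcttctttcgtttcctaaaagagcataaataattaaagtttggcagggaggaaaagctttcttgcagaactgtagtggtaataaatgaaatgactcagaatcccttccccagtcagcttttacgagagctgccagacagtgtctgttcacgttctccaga
Hoxd10, chr2:74691641-74691940, plus strand: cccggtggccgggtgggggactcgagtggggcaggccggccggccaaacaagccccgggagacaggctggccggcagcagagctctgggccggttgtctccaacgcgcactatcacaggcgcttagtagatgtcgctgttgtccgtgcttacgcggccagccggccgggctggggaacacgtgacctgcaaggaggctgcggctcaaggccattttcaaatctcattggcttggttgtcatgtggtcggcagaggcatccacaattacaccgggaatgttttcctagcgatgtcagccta
Hoxd9, chr2:74697513-74697812, plus strand: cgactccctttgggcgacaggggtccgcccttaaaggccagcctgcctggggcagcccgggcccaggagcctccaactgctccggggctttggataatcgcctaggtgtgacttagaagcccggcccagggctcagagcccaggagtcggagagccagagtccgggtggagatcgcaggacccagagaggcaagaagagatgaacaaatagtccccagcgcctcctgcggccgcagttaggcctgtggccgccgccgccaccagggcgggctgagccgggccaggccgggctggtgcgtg
Kcnj8, chr6:142571565-142571864, minus strand: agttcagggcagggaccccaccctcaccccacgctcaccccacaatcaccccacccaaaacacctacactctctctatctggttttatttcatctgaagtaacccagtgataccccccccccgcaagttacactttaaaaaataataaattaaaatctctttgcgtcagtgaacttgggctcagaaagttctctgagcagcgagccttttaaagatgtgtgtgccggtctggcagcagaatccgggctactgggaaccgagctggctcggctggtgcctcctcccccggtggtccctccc
Abcc9, chr6:142702225-142702524, minus strand: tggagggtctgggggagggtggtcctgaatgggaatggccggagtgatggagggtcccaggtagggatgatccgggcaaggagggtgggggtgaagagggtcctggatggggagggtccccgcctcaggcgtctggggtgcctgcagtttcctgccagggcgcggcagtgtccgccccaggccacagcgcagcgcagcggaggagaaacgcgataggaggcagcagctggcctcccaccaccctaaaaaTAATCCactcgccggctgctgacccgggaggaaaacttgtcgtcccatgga
The motifs were TAATCC, the core bound by Pitx homeodomain proteins, CTTTGA, the core bound by Tcf and Lef proteins, and TATAAA, the TATA box, each searched on both strands. One TAATCC was found in the promoter of Abcc9 and no other match in the 5 promoters. Over the genes tested with a promoter sequence, TAATCC stood in 6.72% of the 476 promoters of genes higher, 3.28% of the 335 of genes lower and 5.81% of all 12763. CTTTGA stood in 12.8%, 10.1% and 12.8%, and TATAAA in 11.8%, 6.87% and 8.99%. These shares describe letters in a window and were not tested.

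Among other transcription factors of the limb and body wall, 11 of 56 tested were higher and 13 lower, with a list median of -0.24. These and the list counts that follow are to be read against the 3.79% of all genes tested that were higher, the 2.66% lower and the 6.45% called in all. Next to Pitx1 and Pax9, En1, a homeodomain factor of ventral ectoderm and dermis, fell by 2.06 on the log2 scale (SE 0.23, edgeR adjusted p = 2.52e-07). Its samples had 137, 130.0, 214, 213 and 192 normalized counts in E13.5 MM against 735, 775, 759.7, 710.4 and 726 in E13.5 VM. On the higher side stood Dlx3 and Irx6, Lmx1b, a factor of dorsal limb identity, and Tbx1, with log2 fold changes of 2.41 ± 0.54, 2.08 ± 0.35 and 2.04 ± 0.34 for the last 3 (edgeR adjusted p = 0.00226, 9.87e-05 and 1.03e-04). Tbx15 and Shox2, T-box and homeobox factors of the limb and trunk, rose by 1.9 and 1.46 (edgeR adjusted p = 2.15e-08 and 9.54e-07). Of 34 tested genes of the dermal fibroblast lineage 5 were higher and 7 lower. Osr1, a zinc finger factor of fibroblast progenitors, had 2653, 2799, 3738, 3056 and 3301 normalized counts in E13.5 MM against 956, 411, 653, 675 and 558 in E13.5 VM, with a log2 fold change of 2.26 ± 0.17 (SE, edgeR adjusted p = 1.05e-09). Runx1, a Runt factor, moved the other way with 425, 499.8, 442, 559 and 440.4 in E13.5 MM against 1618, 1824, 1880.1, 2313 and 1843 in E13.5 VM, and a log2 fold change of -2.0 ± 0.16 (SE, edgeR adjusted p = 2.19e-09). Runx2 was at -1.02 ± 0.21 and Twist2, a dermal factor, at -0.60 ± 0.13 (edgeR adjusted p = 8.10e-04 and 0.0016), the latter just past the fold required. Twist2 did not pass without sample 2 or 3 of E13.5 MM or without sample 1, 3 or 4 of E13.5 VM, and its log2 fold change was -0.50 without sample 3 of E13.5 MM.

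Of 20 genes known from work on mammary mesenchyme, all of them tested, 7 were higher and 4 lower, with a median of 0.11. Esr1, the estrogen receptor alpha, had 1075, 1065, 568, 552 and 592 normalized counts in E13.5 MM against 209.6, 167, 217, 178 and 210.1 in E13.5 VM, with a log2 fold change of 1.97 ± 0.23 (SE, edgeR adjusted p = 1.31e-06). Srd5a2, the enzyme that makes dihydrotestosterone, had 1076, 1079.9, 1086, 1217 and 1318 and 528, 482, 593, 579 and 645, with a log2 fold change of 1.03 ± 0.17 (SE, edgeR adjusted p = 9.92e-05). Neither of the pair overlapped between the tissues. Of 31 tested nuclear receptors and steroid enzymes 7 were higher and none was lower (4 at an unadjusted p under 0.05 in edgeR and 0 by DESeq2). Among them were Rarb, a retinoic acid receptor, at 1.2 ± 0.13 and, outside the rule for named genes, the glucocorticoid receptor Nr3c1 at 0.71 ± 0.11 (edgeR adjusted p = 9.48e-08 and 2.02e-05). Nr3c1 was at 0.55, adjusted p = 0.0166, in the fit with the Y-linked level as a covariate.

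Tbx3, mutated in ulnar-mammary syndrome, had 2010.0, 2122, 1878, 1563 and 1598 normalized counts in E13.5 MM against 648, 961, 594, 713 and 538 in E13.5 VM, with a log2 fold change of 1.41 ± 0.19 (SE, edgeR adjusted p = 8.35e-06), and its paralog Tbx2 had a log2 fold change of 0.98 ± 0.14 (SE, edgeR adjusted p = 7.77e-06). Fgf10, a ligand that mammary buds need, had 234, 270.4, 249, 205 and 214 in E13.5 MM against 103, 77.8, 84.7, 102 and 77.9 in E13.5 VM, with a log2 fold change of 1.39 ± 0.14 (SE, edgeR adjusted p = 6.54e-08). The 4 genes of the list that fell included Lef1, the partner of beta-catenin, with 994, 1174, 1162, 1212 and 1145 in E13.5 MM against 2549, 2142, 2531, 2714 and 2335 in E13.5 VM and a log2 fold change of -1.11 ± 0.15 (SE, edgeR adjusted p = 8.97e-06). Gli3, a transcription factor of the Hedgehog pathway, was lower with a log2 fold change of -1.19 ± 0.14 (SE, edgeR adjusted p = 6.63e-07), and Dkk2, a secreted Wnt antagonist, with a log2 fold change of -1.35 ± 0.18 (SE, edgeR adjusted p = 6.49e-06). Msx1 had a log2 fold change of -1.03 ± 0.28 (SE, edgeR adjusted p = 0.012), and it was not called without sample 2 of E13.5 VM (-0.72, adjusted p = 0.0714) or with the Y-linked level as a covariate (-1.22, adjusted p = 0.067). The 9 genes not called had log2 fold changes of 0.54 for Eda, 0.32 for Bmpr1a, 0.12 for Ptch1, 0.11 for Msx2, 0.10 for Nrg3, -0.37 for Pth1r, -0.41 for Bmp4, -0.43 for Tnc and -0.51 for Hoxc8. At an unadjusted p under 0.05 in edgeR 9 of the 20 genes were higher and 7 lower, against 7 and 4 called. Some genes not called thus had such a p. Msx2 changed sign without sample 1 or 2 of E13.5 MM, and Nrg3 without sample 2 or 3 of E13.5 MM or sample 2 or 4 of E13.5 VM. Pth1r, the receptor for the epithelial signal Pthlh, had 2856, 3176, 2545, 3544 and 3513 normalized counts in E13.5 MM against 3947, 3693, 4391, 4353 and 3770.1 in E13.5 VM.

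The Wnt pathway, in which secreted ligands act through Frizzled and Lrp receptors on beta-catenin or on cell polarity, changed in parts. Of 16 tested ligands and R-spondins 5 were higher and 1 lower, with a median of 0.73. Wnt5a, a ligand of the beta-catenin-independent branch, had 7370.4, 7349, 7069.9, 7632 and 8252 normalized counts in E13.5 MM against 2539, 2034, 2699, 2889 and 2489.6 in E13.5 VM, with a log2 fold change of 1.57 ± 0.18 (SE, edgeR adjusted p = 5.12e-07). Wnt2 was higher by 2.06 ± 0.21 and the potentiator Rspo1 by 0.88 ± 0.15 (SE, edgeR adjusted p = 7.81e-08 and 1.32e-04), while Rspo3 was lower at -0.91 ± 0.23 (edgeR adjusted p = 0.00662). In the 10 samples alone Rspo3 was not called with the replicate number as a block (-0.81, edgeR adjusted p = 0.0595) or with the Y-linked level as a covariate (-1.13, edgeR adjusted p = 0.0547). Of 18 receptors 3 were lower and none higher (5 at an unadjusted p under 0.05 in edgeR and 0 by DESeq2). These were Ror1, a receptor for Wnt5a, at -1.6 ± 0.15, Fzd1 at -1.0 ± 0.13 and Fzd7 at -0.88 ± 0.14 (edgeR adjusted p = 2.79e-08, 4.40e-06 and 3.30e-05). Of 23 antagonists 5 were higher and 3 lower. Dkk1 had 264, 291, 307, 354 and 544 normalized counts in E13.5 MM against 95.7, 65.3, 115, 132 and 92.9 in E13.5 VM, with a log2 fold change of 1.81 ± 0.25 (SE, edgeR adjusted p = 7.07e-06), and Notum, an enzyme that inactivates Wnt ligands, was higher by 1.13 ± 0.21 (edgeR adjusted p = 3.80e-04). Dkk2 and Kremen1, a Dkk receptor, were lower, Kremen1 at -1.01 ± 0.15 (edgeR adjusted p = 2.40e-05). Sfrp2 was lower at -0.86 ± 0.23 (edgeR adjusted p = 0.0107), but at -0.47, adjusted p = 0.0323 without sample 2 of E13.5 VM. It was also not called in the 10 samples alone (edgeR adjusted p = 0.0935), nor there with the replicate number as a block (-0.73, adjusted p = 0.216) or the Y-linked level as a covariate (adjusted p = 0.187).

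Of 21 feedback and target genes of the canonical branch 3 were higher and 4 lower, and the list median was -0.44. Axin2, the scaffold that serves as a standard readout of the branch, had 2780.1, 3168, 2614, 3004 and 3023 normalized counts in E13.5 MM against 4996, 4558, 5623, 6017 and 5195 in E13.5 VM, with a log2 fold change of -0.86 ± 0.10 (SE, edgeR adjusted p = 1.15e-06). Nkd2, a feedback inhibitor, was lower by 1.12 (SE 0.14, edgeR adjusted p = 1.20e-06), next to Lef1 and Twist2. The 3 higher were Dkk1, Notum and Ccnd1, a cyclin that many signals raise, at 0.85 ± 0.11 (edgeR adjusted p = 1.90e-06). With the level of Y-linked genes as a covariate in the 10 samples, 7 of the 21 were lower.

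In the Bmp pathway, secreted antagonists hold ligands away from their receptors. Of 17 tested Bmp and activin antagonists 5 were higher and none lower (1 at an unadjusted p under 0.05 in edgeR and 0 by DESeq2), with a median of 0.47. Bmper had 148, 127, 142, 96.2 and 94.4 normalized counts in E13.5 MM against 35.5, 42.5, 23.5, 16.6 and 10.3 in E13.5 VM, with a log2 fold change of 2.26 ± 0.26 (SE, edgeR adjusted p = 7.11e-07), and Tmeff2 had a log2 fold change of 2.14 ± 0.18 (SE, edgeR adjusted p = 4.21e-09). Without sample 2 or sample 4 of E13.5 VM, 1 antagonist was lower. Of 20 receptors, Smads and Id targets 5 were higher and 3 lower. Id1, Id3 and Id4, inhibitors of bHLH factors that Bmp signals raise, were higher by 0.91 ± 0.13, 0.69 ± 0.12 and 2.37 ± 0.18, and Smad9, an effector of Bmp receptors, by 1.72 ± 0.22 (edgeR adjusted p = 9.98e-06, 9.48e-05, 5.42e-10 and 2.07e-06). The samples of Id4 had 711, 626, 686, 612 and 585 in E13.5 MM against 154, 161, 94.9, 102 and 114 in E13.5 VM. Without sample 2 or 5 of E13.5 MM or sample 2 of E13.5 VM, 1 of the 20 was lower. Of 18 ligands 2 were higher and 3 lower, and 1 was higher without sample 3 of E13.5 MM or sample 3, 4 or 5 of E13.5 VM. Bmp5 fell by 2.0 (SE 0.27) and Bmp6 by 1.43 (SE 0.30), while Bmp7 rose by 0.90 ± 0.14 (edgeR adjusted p = 6.27e-06, 0.00141 and 3.76e-05). Inhba, the subunit of activin A, was lower at -0.86 ± 0.21 (edgeR adjusted p = 0.00536).

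Among growth factor pathways, that of Igf, like others below, held more genes higher than lower. Of 17 tested genes of the Igf pathway 7 were higher and 1 lower, with a median of 0.39. Pappa2, a protease that frees Igf from its binding proteins, had 13421, 13091, 10002, 10962 and 11357 normalized counts in E13.5 MM against 2345, 909.7, 1230.2, 2034 and 1356 in E13.5 VM, with a log2 fold change of 2.9 ± 0.25 (SE, edgeR adjusted p = 1.59e-08). Igf1, the growth factor itself, had 4956, 4480.1, 5444, 3885 and 3698 and 1638, 3677, 1399, 1432 and 1402, with a log2 fold change of 1.23 ± 0.23 (SE, edgeR adjusted p = 4.03e-04). Sample 2 of E13.5 VM held more than the other E13.5 VM samples, and with Y-linked level as a covariate in the 10 samples the log2 fold change was 1.25, adjusted p = 0.0773. The binding proteins Igfbp3 and Igfbp6 rose by 1.21 ± 0.13 and 3.12 ± 0.21 (edgeR adjusted p = 1.32e-07 and 5.94e-11), and Irs2, an adaptor of the receptor, fell by 0.74 (SE 0.11, edgeR adjusted p = 2.65e-05). Of 30 Fgf genes 3 were higher and 1 lower with a median of -0.03, and none was lower without sample 1 or 2 of E13.5 MM or sample 1, 2 or 4 of E13.5 VM. Fgf7, which acts on epithelial receptors, had 901, 1034, 1242, 933 and 910.0 in E13.5 MM against 279, 187, 301, 193 and 255 in E13.5 VM, with a log2 fold change of 2.04 ± 0.15 (SE, edgeR adjusted p = 1.80e-10). Kitl, the ligand of the Kit receptor, Pdgfd, Angpt1 and the Hgf receptor Met were higher by 1.63 ± 0.13, 1.61 ± 0.13, 1.51 ± 0.14 and 1.24 ± 0.28 (edgeR adjusted p = 1.11e-09, 1.46e-09, 1.74e-08 and 0.00261), among 5 higher and none lower of 14 tested (2 at an unadjusted p under 0.05 in edgeR and 0 by DESeq2). Without sample 5 of E13.5 MM or sample 1 of E13.5 VM 1 of the 14 was lower. Of 18 neurotrophic genes 5 were higher and none lower (3 at an unadjusted p under 0.05 in edgeR and 0 by DESeq2). Ptn, pleiotrophin, had a log2 fold change of 1.64 ± 0.20 (SE, edgeR adjusted p = 1.81e-06), and Ret, the receptor tyrosine kinase of Gdnf family ligands, had a log2 fold change of 2.37 ± 0.24 (SE, edgeR adjusted p = 4.09e-08).

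Of 13 tested Hedgehog genes 4 were lower and 1 higher. Hhip, a membrane protein that binds Hedgehog ligands, had 112, 178, 164, 230.0 and 141 normalized counts in E13.5 MM against 703, 571, 643, 928 and 701 in E13.5 VM, with a log2 fold change of -2.1 ± 0.30 (SE, edgeR adjusted p = 1.72e-05), and Gas1, a co-receptor, was lower at -0.85 ± 0.08 (edgeR adjusted p = 3.40e-08). Gli1, a target of the pathway, was the gene higher, at 0.67 ± 0.20 (edgeR adjusted p = 0.0251), and did not pass without sample 1 or 4 of E13.5 MM or sample 2, 3 or 5 of E13.5 VM. Of 15 tested genes of retinoic acid metabolism and response 7 were higher and 1 lower, with a median of 0.69. The 3 enzymes that make retinoic acid did not move together, since Aldh1a1 and Aldh1a2 rose by 5.12 ± 0.57 and 2.13 ± 0.24 and Aldh1a3 fell by 0.88 (SE 0.17), with edgeR adjusted p = 3.45e-07, 4.39e-07 and 4.42e-04. Aldh1a1 had 420.1, 75.5, 66.3, 68.9 and 47.7 normalized counts in E13.5 MM against 8.6, 3.11, 3.92, 2.62 and 0.938 in E13.5 VM, with most of the E13.5 MM mean in sample 1. Its near-identical paralog Aldh1a7 had 617, 224, 143, 142 and 109 and 3.22, 5.19, 5.49, 9.62 and 7.5, so how the reads were divided between these 2 genes is uncertain.

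Matrix genes were called in both directions. Of 43 tested collagens 8 were higher and 5 lower. Col6a6, an alpha chain of collagen VI, had 776, 676, 641, 527 and 383 normalized counts in E13.5 MM against 77.4, 63.3, 37.6, 42.9 and 73.2 in E13.5 VM, with a log2 fold change of 3.36 ± 0.25 (SE, edgeR adjusted p = 1.43e-09), and Col24a1, a fibrillar collagen, was lower at -1.04 ± 0.08 (edgeR adjusted p = 1.25e-09). Of 84 glycoproteins and proteoglycans 14 were higher and 6 lower. The higher ones included the small leucine-rich proteoglycans Kera and Dcn, decorin, at 0.98 ± 0.16, the laminin chain Lamc3 at 2.29 ± 0.23 and the microfibril protein Mfap5 at 2.27 ± 0.30 (edgeR adjusted p = 1.09e-04, 3.95e-08 and 4.52e-06). The laminin chain Lama3, the syndecan Sdc2 and asporin, Aspn, were lower at -1.86 ± 0.23, -1.25 ± 0.07 and -1.2 ± 0.19 (edgeR adjusted p = 1.63e-06, 3.78e-12 and 7.09e-05). Of 46 metalloproteases and protease inhibitors 12 were higher and 2 lower. Adamts19 had 1545, 1368, 1335, 999 and 1128 normalized counts in E13.5 MM against 203, 252, 212, 235 and 209 in E13.5 VM, with a log2 fold change of 2.52 ± 0.18 (SE, edgeR adjusted p = 5.21e-10), next to Mmp19 at 2.86 ± 0.23 and Adamts5, which cleaves aggrecan and versican, at 1.67 ± 0.15 (edgeR adjusted p = 1.99e-09 and 1.02e-08). Without sample 1 or sample 3 of E13.5 VM, 4 genes of this list were lower.

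Of 52 cell adhesion genes 12 were lower and 5 higher. After Dsc2, the genes lower were led by Cdh18, Cdh3, P-cadherin, and the neural adhesion molecule Chl1, at -1.66 ± 0.25, -1.61 ± 0.30 and -1.52 ± 0.19 (edgeR adjusted p = 2.44e-05, 3.87e-04 and 1.11e-06). Cadm3 and Cntn4, adhesion molecules of neurons, were higher at 2.36 ± 0.20 and 2.11 ± 0.38 (edgeR adjusted p = 2.46e-09 and 2.62e-04). Of 71 guidance genes 6 were higher and 7 lower, 18.3% in all. Unc5c, a netrin receptor, and Ntn1, netrin 1 itself, were both higher. Unc5c had 2961, 2529, 1904, 1534 and 1697 normalized counts in E13.5 MM against 411, 459.5, 450.0, 443 and 347 in E13.5 VM, with a log2 fold change of 2.33 ± 0.17 (SE, edgeR adjusted p = 7.83e-10), and Ntn1 had a log2 fold change of 1.82 ± 0.12 (SE, edgeR adjusted p = 9.02e-11). Slit2, a repellent ligand, was higher at 1.82 ± 0.15, and Efna5 and Sema3e were lower at -1.23 ± 0.27 and -1.85 ± 0.39 (edgeR adjusted p = 4.51e-09, 0.00255 and 0.00144). Of 27 chemokine and cytokine genes 6 were higher and 1 lower. Ptx3, a secreted pentraxin, was higher at 1.9 ± 0.13, and Ackr4, a chemokine scavenger, lower at -2.32 ± 0.44 (edgeR adjusted p = 1.09e-10 and 3.61e-04).

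Beside the neuron, pericyte and tendon lists above, with 28.6%, 25% and 62.5% of their genes called, markers of other cell types and of cell division were counted. Of 10 tested mesothelial genes 2 were higher, Bnc1, a zinc finger factor, at 1.12 ± 0.18 (edgeR adjusted p = 7.85e-05) and Rspo1, and none was lower (0 at an unadjusted p under 0.05 in edgeR and 0 by DESeq2). Their summed level was 123 to 139.5 CPM in E13.5 MM and 59.1 to 75.2 in E13.5 VM, so the ranges did not overlap, while the defining genes Wt1 and Msln were at 1.32 to 4.33 and 0.528 to 1.44 in E13.5 MM and 1.82 to 3.98 and 0.23 to 1.76 in E13.5 VM. Most of that sum came from Bnc1 and Rspo1. Median CPM of E13.5 MM was 42.4 for Bnc1 and 78.9 for Rspo1, against 21.4 and 44.1 for E13.5 VM. The gap in the sum thus repeats the calls of these 2 genes and does not measure mesothelium separately. The part of mesothelium in the results was not tested. Of 12 glial genes 1 was higher and none lower (1 at an unadjusted p under 0.05 in edgeR and 0 by DESeq2), with a summed level of 296 to 344 in E13.5 MM and 248 to 292 in E13.5 VM, and without sample 5 of E13.5 VM 2 were higher. Of 26 proliferation genes none was called with edgeR or DESeq2 in either direction. At an unadjusted p under 0.05 in edgeR 2 were higher and 4 lower. Their median was -0.11. Of 17 leukocyte, 10 mast cell and 6 melanocyte genes none was called with edgeR or DESeq2. In that order 2, 1 and 0 of them had an unadjusted p under 0.05 in edgeR. A mast cell gene was higher without sample 2 of E13.5 MM or sample 1 of E13.5 VM. Of 11 erythroid genes none was called with edgeR, 5 had an unadjusted p under 0.05 in edgeR and 1 was lower by DESeq2. Of these 11, 1 or 2 were lower without sample 2 or 4 of E13.5 MM or sample 3 or 4 of E13.5 VM. Of the 29 skeletal muscle genes none was called with edgeR or DESeq2, 2 were lower at an unadjusted p under 0.05 in edgeR, and the median was -0.70. Their summed level was 222 to 726 CPM in E13.5 MM against 266 to 906 in E13.5 VM, so the ranges overlapped. The summed level of 26 epithelial genes was 19 to 39.8 in E13.5 MM against 14.2 to 20 in E13.5 VM. One of them, Pkp1, was higher, and it was not called without sample 1 of E13.5 MM. At an unadjusted p under 0.05 in edgeR 5 of the 26 were higher and none lower, and DESeq2 called 2 higher. The list median was 0.41. Among the defining epithelial genes, Epcam was at 1.39 to 2.98 CPM in E13.5 MM against 0.684 to 1.09 in E13.5 VM, Krt14 at 0.396 to 3.79 and 0.0726 to 0.782, and Cdh1 at 0.297 to 0.846 and 0.268 to 0.586. Pthlh, which the mammary epithelium secretes, was at 0.232 to 1.88 in E13.5 MM against 0 to 0.182 in E13.5 VM. The part of remaining epithelium in the results above was not tested. Of 22 immediate early and heat shock genes 2 were higher, Egr1 and Hspa1a, the latter at 1.16 ± 0.24 (edgeR adjusted p = 0.00132), and none was lower (4 at an unadjusted p under 0.05 in edgeR and 1 by DESeq2). Without sample 3 of E13.5 MM 1 was lower, and with Y-linked level as a covariate in the 10 samples neither of the 2 was called.

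**Figure D4:**
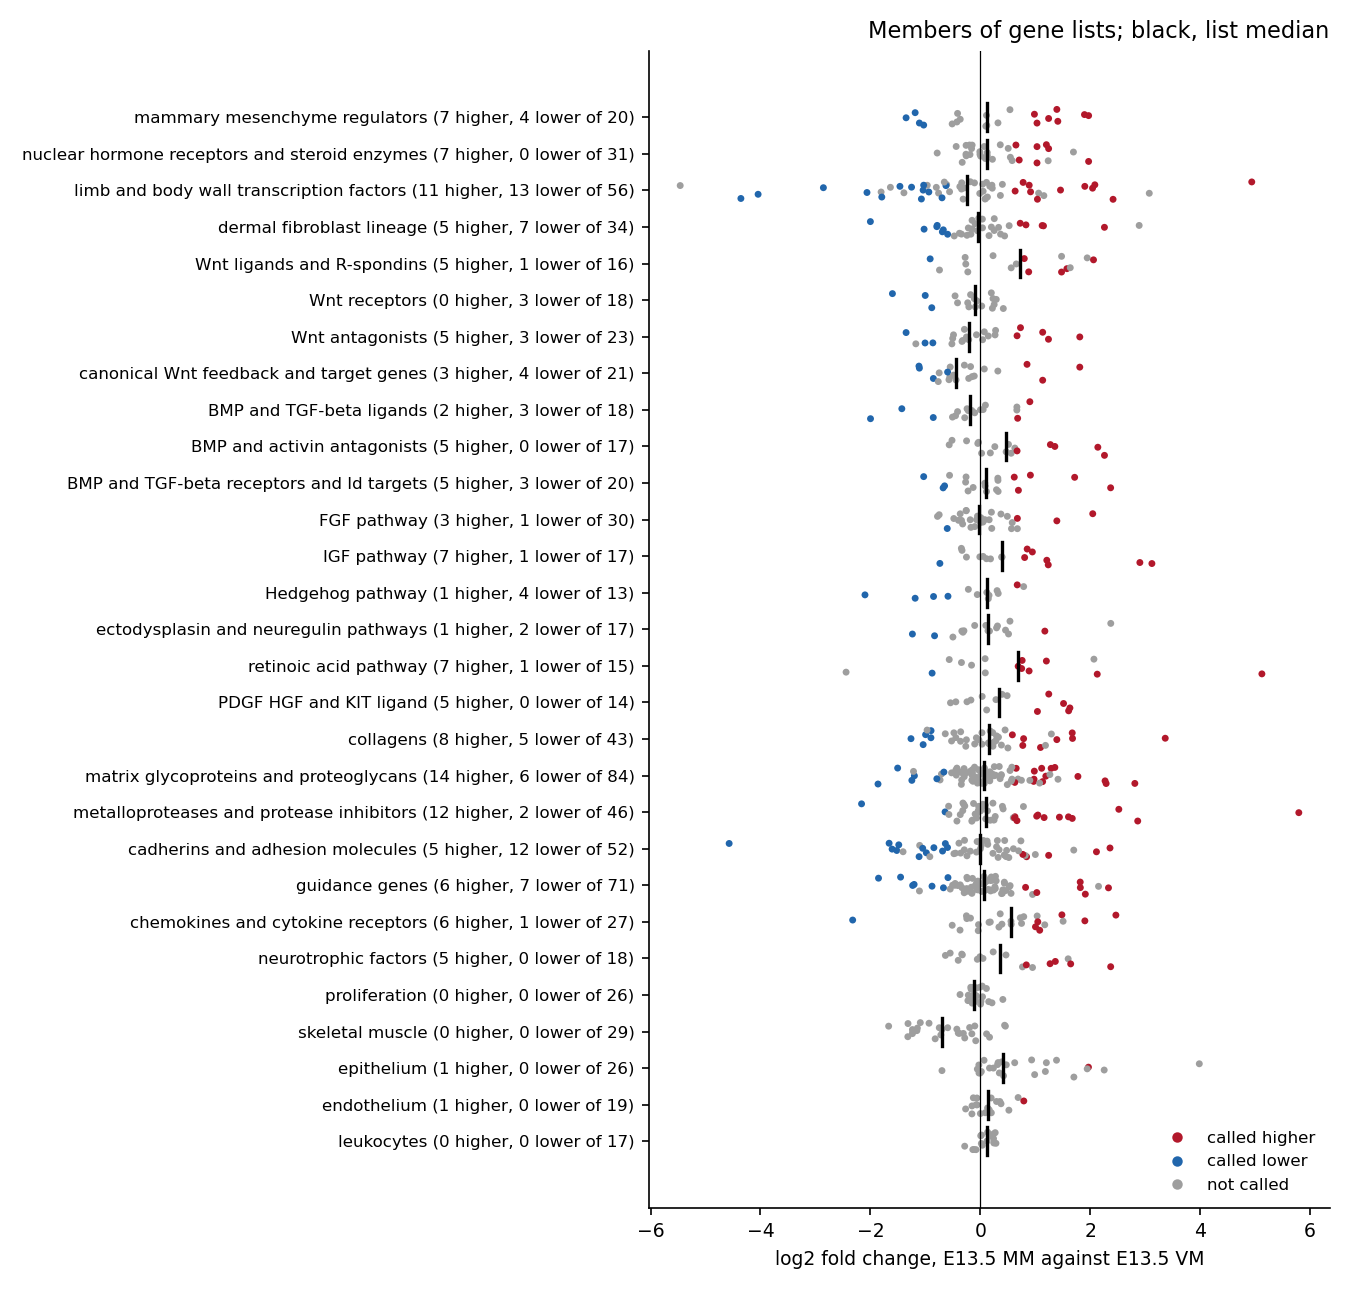
Log2 fold change, E13.5 MM against E13.5 VM, of every tested member of 29 gene lists, with red and blue for members called higher and lower, grey for members not called and a black bar at the list median. The Igf and the retinoic acid list each hold 7 red points and 1 blue point, and the adhesion list holds 12 blue and 5 red points.

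The 1139 genes were then followed to E16.5, in the comparison of E16.5 MM with E16.5 FP, which shares no sample with the one at E13.5 but sets another tissue against the mammary mesenchyme. Over all genes tested 7.34% were higher in E16.5 MM and 6.78% lower. Of the 669 genes higher in E13.5 MM, 235 (35.1%) were also higher in E16.5 MM and 82 (12.3%) were lower, and the median log2 fold change at E16.5 was 0.31. Of the 470 genes lower in E13.5 MM, 131 (27.9%) were higher and 62 (13.2%) lower, with a median of 0.10. The 235 were 18.1% of all genes higher in E16.5 MM. The mean normalized count was highest in E13.5 MM among the 5 tissues for 192 of the 669 genes (28.7%), and highest in E13.5 VM for 286 of the 470 (60.9%). Over all genes tested the shares were 11.1% and 16.3%, and the choice of genes excludes E13.5 VM as the highest for the first group and E13.5 MM for the second.

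Named genes followed different courses. Esr1 had 3928 ± 1334 normalized counts in E16.5 MM against 157 ± 39.5 in E16.5 FP (SD, n = 5 each), so that the log2 fold change was 4.65 ± 0.26 (SE, edgeR adjusted p = 1.73e-12). Frem1 and Pappa2 were also higher in E16.5 MM, by 3.12 ± 0.21 and 2.39 ± 0.25 (edgeR adjusted p = 5.58e-11 and 9.09e-08). A2m fell from 1442 ± 169.8 in E13.5 MM to 192 ± 73 in E16.5 MM and had 232 ± 65 in E16.5 FP, so that it was not called at E16.5 (log2 fold change -0.28 ± 0.21, edgeR adjusted p = 0.346). Hoxd11 had 129 ± 20.5 in E16.5 MM against 136 ± 88.7 in E16.5 FP, and Hoxc10 had 2.35 ± 2.78 and 3.02 ± 1.97. Each tissue of the mammary region thus held Hoxd11 and hardly any Hoxc10, and E13.5 VM the reverse. Body position and tissue type cannot be told apart here either. Lef1 and Axin2, which fell at E13.5, were higher in E16.5 MM than in E16.5 FP by 4.08 ± 0.19 and 2.7 ± 0.12 (edgeR adjusted p = 1.58e-14 and 3.90e-15). Inhba had the same reversal, with 4.69 ± 0.26 at E16.5 (edgeR adjusted p = 1.62e-12), and Aldh1a2 the opposite one, with -3.87 ± 0.23 (edgeR adjusted p = 1.83e-12). Whether the 2 comparisons differ was not tested, since stage and reference tissue changed together. Pitx1, at 474 ± 148 in E13.5 VM and 22.8 ± 4.46 in E13.5 MM, was at 6.81 ± 3.08 in E16.5 MM and 7.78 ± 2.85 in E16.5 FP, while E13.5 SM had 4025 ± 710.2.

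**Figure D5:**
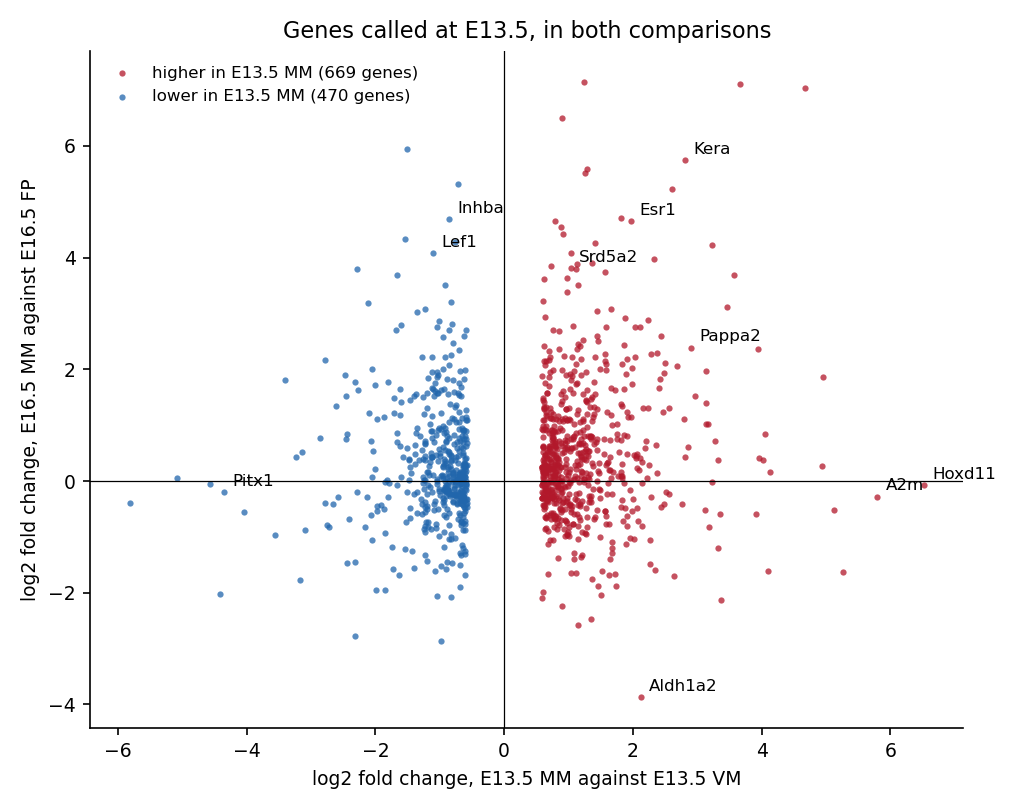
Log2 fold change of E16.5 MM against E16.5 FP plotted against that of E13.5 MM against E13.5 VM for the 1139 genes called at E13.5, red for the 669 higher and blue for the 470 lower. Esr1 and Kera lie high on both axes, Lef1 and Inhba lie left of 0 and high, and Hoxd11, A2m and Pitx1 lie close to 0 on the vertical axis.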

How the data were processed

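Libraries of pooled mesenchyme, prepared with Ovation SoLo reagents, were read on a NextSeq 500. The values are estimated counts per gene, deposited by the authors as whole numbers. They quantified reads with Salmon 0.99.0 on mm10 after FastQC 0.11.8, MultiQC 1.9, Trimmomatic 0.39 and removal of ribosomal reads. Salmon divides reads among genes that share sequence, and the use of strand is not stated, so overlapping and antisense genes cannot be told apart. The authors' own calls used DESeq2, for which the methods give version 3.15.

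All 25 samples, scaled with TMM factors, entered a single quasi-likelihood fit (edgeR 4.0.16, R 4.3.3) that gave each tissue its own mean and used robust dispersions, after edgeR's expression filter. The Benjamini-Hochberg adjustment covered 17657 genes. Standard errors were derived as the absolute log2 change over the root of F. Symbols, coordinates and overlaps came from GENCODE M21, in which 375 of 35880 genes, with 0.0805% of all counts, had no symbol. Promoters came from RefSeq, matched by symbol for 12763 genes tested. Python 3.11.15 with pandas 2.3.3 and numpy 2.4.6 made the tables, and matplotlib 3.10.9 drew the plots.

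The genes to be named were the 15 largest changes in each direction among called genes whose tissues did not overlap and whose mean exceeded 100, every mammary mesenchyme regulator, and up to 4 called members in each direction of every other list. Predicted genes were passed over, and not every gene so chosen is reported here. Hoxb2 to Hoxb5, Hoxb7, Hoxa5, Hoxa7, Hoxa10, Tbx15, Shox2, Nr3c1, Sim1, Nell1, Nell2 and Irx3 were added after their values were seen. The 45 lists, the comparison and the rule were chosen with earlier results of these data known.

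The fit was tested on simulated data modelled on the 25 samples, with E13.5 MM set against E13.5 VM over 17349 genes and 50 changed at each fold. It called 48% of genes changed 1.5-fold, 88% of the genes at 2-fold, 90% at 3-fold, 90% at 0.5-fold and 0% of the 17149 unchanged genes. The changed genes were drawn only from those with expected counts well above the count threshold, so recovery near that threshold was not measured. Simulated samples were independent, with no shared litters and no samples that stood apart. The 0% therefore does not cover these features of the real samples. The alternatives were the Wald test of DESeq2 1.42.0, DESeq2 size factors in edgeR, a run with every gene kept, a fit of the 10 samples alone, the replicate number as a block, the Y-linked level as a covariate, a count threshold set on the mean of both tissues together, and each sample left out in turn. Leaving out the 3 samples that stood apart was added after seeing the data.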

Additional observations from a re-analysis of the deposited data

Results flagged for a closer look

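For 154 genes named in the text, the highest or lowest of the 5 samples of a tissue was set against the other 4, and its gap to the nearest of them exceeded Dixon's 95% critical share of the range, 0.71, in 26 of 308 groups of 5. For independent values with a normal spread about 1 in 20 groups would be marked. The counts were not put on the log scale and the groups share the same samples, so the 26 cannot be judged against that share. Sample 2 of E13.5 VM was marked most often, for 7 genes in which it was the highest of 5. These were Igf1, with 3677 normalized counts against 1638 in the nearest sample, Rarb, with 402 against 259, Sfrp2, with 5335 against 2443, Hoxa10, with 760.3 against 541, Sox6, with 443 against 272, Il33, with 2476 against 1273, and Tnmd, with 445 against 234. In sample 3 of E13.5 MM the values marked were those of Dlx3, with 72.1 normalized counts against 96.5 in the nearest sample and the lowest of 5, Nell1, with 349.9 against 289, Aldh1a2, with 93.6 against 58.3, Shox2, with 2441 against 1804, Sfrp2, with 1864 against 1445, and Nptx1, with 24.4 against 7.06. In sample 1 of E13.5 MM the values marked were those of Aldh1a7, with 617 normalized counts against 224 in the nearest sample, Aldh1a1, with 420.1 against 75.5, Dcn, with 29676 against 24975, and Gabrb1, with 46.3 against 94.5 and the lowest of 5. In sample 1 of E13.5 VM the values marked were those of Kera, with 103 normalized counts against 66.5 in the nearest sample, Abcc9, with 435 against 351, and Egr1, with 342 against 169. In sample 4 of E13.5 VM the values marked were those of Gli3, with 4881 normalized counts against 3400.3 in the nearest sample, Efna5, with 2464 against 1232, and Nptx1, with 157 against 102. In sample 2 of E13.5 MM the value marked was that of Tbx1, with 119 normalized counts against 208 in the nearest sample and the lowest of 5. In sample 4 of E13.5 MM the value marked was that of Sim1, with 512 normalized counts against 427 in the nearest sample. In sample 5 of E13.5 VM the value marked was that of Hspa1a, with 10.3 normalized counts against 35.3 in the nearest sample and the lowest of 5. Values not said to be the lowest were the highest of 5, and no cause was tested.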

How the results depend on the processing

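With 669 genes higher and 470 lower in E13.5 MM, the alternatives other than leaving out 1 sample gave 604 to 697 higher and 416 to 488 lower, and leaving out 1 sample gave 612 to 680 and 415 to 475. DESeq2 called 697 higher and 488 lower. At least 559 of the 669 and 383 of the 470 were called again under each of these. The replicate numbers did not pair the samples: deviations of E13.5 MM and E13.5 VM samples with the same number correlated at r = -0.099 to 0.289, 1 of 5 over 0.1, and 2 of 10 samples correlated best with their own number. With the replicate number as a block 665 genes were higher and 460 lower over the 25 samples, and 691 and 475 over the 10. Of the genes higher at E13.5, 223 to 246 were higher at E16.5 and 79 to 86 lower under the alternatives run for that comparison, and of the genes lower at E13.5, 124 to 138 were higher and 52 to 70 lower. Of 154 genes named, 16 were no longer called under at least 1 alternative. Eda became called with the Y-linked level as a covariate, and 2 that were not called changed sign. When 1 sample was left out, Msx2 ran from -0.13 to 0.27 and Nrg3 from -0.086 to 0.42 on the log2 scale. Dlx3, Aldh1a2 and Pkp1, with low means in E13.5 VM, missed the count threshold when the mean was taken over both tissues, by its construction. For the other genes that were no longer called the cause was not tested. Of 1710 counts of list members under the alternatives, 119 moved by more than 1.5 times, in 29 of 90 counts. The depth of 23635931 to 34448304 counts per sample and 5 pools per tissue limit what can be called.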

Other observations

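Further gene lists were counted between E13.5 MM and E13.5 VM, where 6.45% of all genes tested were called. Of 24 tested adipogenesis genes 4 were higher and 2 lower, and 1 was lower without sample 5 of E13.5 MM or sample 2 of E13.5 VM. Pparg, the nuclear receptor that drives fat cell formation, had 72.3, 89.8, 71.1, 76.7 and 61.8 normalized counts in E13.5 MM against 45.1, 22.8, 33.7, 41.1 and 29.1 in E13.5 VM, with a log2 fold change of 1.11 ± 0.24 (SE, edgeR adjusted p = 0.00149). Of 15 contractile genes 3 were higher and 2 lower, among them Myocd, the coactivator of the smooth muscle program, with 75.7, 31.5, 42.9, 28.2 and 16.8 in E13.5 MM against 188, 249, 94.1, 285 and 118 in E13.5 VM and a log2 fold change of -2.28 ± 0.35 (SE, edgeR adjusted p = 4.14e-05). Of 14 cartilage genes 1 was higher and 2 lower, and these 2 were Sox6 at -1.85 ± 0.24 and Matn4, matrilin 4, at -1.5 ± 0.25 (edgeR adjusted p = 3.95e-06 and 9.45e-05), while Sox9 was at 1.97 to 3.81 CPM in E13.5 MM against 1.61 to 5.25 in E13.5 VM. No cartilage gene was higher without sample 1 or 2 of E13.5 MM or without sample 1, 3, 4 or 5 of E13.5 VM. Of 21 imprinted genes 4 were higher and none lower (2 at an unadjusted p under 0.05 in edgeR and 0 by DESeq2), led by the zinc finger factor Plagl1 at 1.03 ± 0.12 (edgeR adjusted p = 6.05e-07). Without sample 2 or 5 of E13.5 MM or sample 2 or 3 of E13.5 VM, 1 imprinted gene was lower. Of 17 Notch genes 1 was lower and none higher (4 at an unadjusted p under 0.05 in edgeR and 0 by DESeq2), 5.88% in all. Of 17 ectodysplasin and neuregulin genes 1 was higher and 2 lower, and 1 was lower without any one sample other than sample 3 of E13.5 MM. Of 19 endothelial genes 1 was higher, 5.26% in all, and none was without sample 2, 3 or 5 of E13.5 MM or without any one sample of E13.5 VM. At an unadjusted p under 0.05 in edgeR 7 of the 19 were higher and none lower, and the list median was 0.13.

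Several paralogs moved in opposite directions. These pairs were noticed after their values were seen, so they are given as values with no test of the pattern. Sim1 had 422, 427, 413, 512 and 419 normalized counts in E13.5 MM against 1910.0, 1958, 2165, 2463 and 2431 in E13.5 VM, with a log2 fold change of -2.32 ± 0.24 (SE, edgeR adjusted p = 1.38e-07), against the rise of Sim2. Nell1 rose and Nell2 fell, at 3.33 ± 0.33 and -2.44 ± 0.14 (edgeR adjusted p = 7.08e-08 and 8.17e-12). Irx3 was lower at -1.46 ± 0.20 (edgeR adjusted p = 9.65e-06) while Irx6 was higher.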
